A study of Neogale vison with 6 samples.

Results

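Coenzyme Q (ubiquinone) synthesis was examined in Mv1Lu cells, an epithelial line from mink lung, through 10 genes chosen by name: PDSS1, PDSS2, COQ2, COQ3, COQ4, COQ5, COQ6, COQ7, COQ8A and COQ9. Of these 10 genes, 8 were found among the 24526 genes of the deposited count table, while COQ2 and COQ3 were found neither by symbol nor by gene description. The RNA-seq data comprised 3 libraries of untreated cells (control) and 3 libraries of cells subjected to cholesterol depletion (CD). For CD the cells received 50 μM lovastatin, a statin, together with 50 μM mevalonate, a precursor of isoprenoids, for 16 h in medium with 10% lipoprotein-deficient serum (LPDS). The effects of the statin, the mevalonate and the serum cannot be told apart in this design. All libraries come from 1 cell line, and as the labels do not say that the replicates were separate cultures, the p-values measure only the spread between these libraries.

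Coenzyme Q is a lipid of the inner mitochondrial membrane that carries electrons from several dehydrogenases to complex III of the respiratory chain and that also acts as an antioxidant. It has a long isoprenoid tail, made from the same farnesyl diphosphate that feeds cholesterol, dolichol and protein prenylation, and a benzoquinone head that derives from tyrosine. The tail is built by PDSS1 and PDSS2, it is joined to the head by COQ2, and the head is then modified by a membrane-bound complex of COQ proteins. Since statins act upstream of farnesyl diphosphate, the question addressed here was how the transcripts of this branch stood in cells with a mild loss of cholesterol.

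Levels are given as CPM, the reads of a gene relative to the TMM-scaled size of its library, and differences as log2 fold changes (log2FC, CD over control) with their standard error (SE). The quasi-likelihood test of edgeR was run on 12148 genes, and genes with an FDR (Benjamini-Hochberg) below 0.05 are said to be called. The libraries held 13473820 to 18633764 reads on genes. CD altered a large part of the transcriptome, so that 47.7% of the tested genes were called, 24.8% higher and 22.9% lower. The libraries of CD differed among themselves. In CD replicate 3, 41.4% of the reads were not counted on genes, against 31.1% and 31.8% in the other CD libraries. In control this share was 29.3% to 47.2%. These shares include unmapped reads, which made up 9.37% of CD replicate 3, against 3.54% and 4.33% of CD replicates 1 and 2. In control 4.25% to 18.4% were unmapped. The keratin KRT19 was at 883 to 1011 CPM in control, but the epithelial markers EPCAM, CDH1 and CLDN7 were below 0.5 CPM in every library, and KRT8 and KRT18 were not found by symbol. Of 5 fibroblast markers, all were detected, meaning at least 1 read in any library. Their summed level was 306 to 384 CPM in control and 180 to 228 CPM in CD, mostly from COL1A2 (mean 212 and 164 CPM). DCN, with 0 to 2 reads per library in control and 1 to 8 in CD, was not tested. The endothelial list (3 of 3 detected) reached at most 0.307 CPM in a library. The immune list (3 of 3 detected) was at 5.13 to 5.66 CPM in control and 16.9 to 22.4 CPM in CD, nearly all from CD68, a lysosomal protein, while PTPRC, the defining leukocyte gene, had at most 1 read in a library. The part of these markers in the results that follow was not tested, and KRT19 itself was lower in CD (379 to 533 CPM).

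All 8 genes found passed the filter on low counts. Only PDSS1, a subunit of the enzyme that makes the isoprenoid tail, was called lower in CD, and no gene of the branch was called higher. The other 7 genes were not called, with log2FC values between -0.46 (COQ7) and 0.03 (COQ5). The count of 1 lower gene among 8 stands against 22.9% of all tested genes, and the count of 0 higher genes against 24.8%. At an unadjusted p under 0.05, edgeR had 4 of the 8 genes lower and 0 higher (26.1% and 28.6% of all genes), and DESeq2 and limma-voom also called 0 higher. DESeq2 called 2 of the 8 lower, against 23.2% of all genes. The CD libraries lay entirely below the control libraries for 5 of the 8 genes and entirely above for 0, against 28.6% and 29.5% of all tested genes (58.0% in either direction). The point estimate was negative for 7 of the 8 genes, as for 5683 of the 12148 tested genes, and those of COQ5 and COQ6 changed sign with single libraries left out. The median log2FC was -0.35, or -0.21 without CD replicate 1, compared with 0.06 over all tested genes. The number of lower genes rested on 1 library, being 6 of 8 without CD replicate 3 (29.2% of all genes in that fit).

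**Figure D1:**
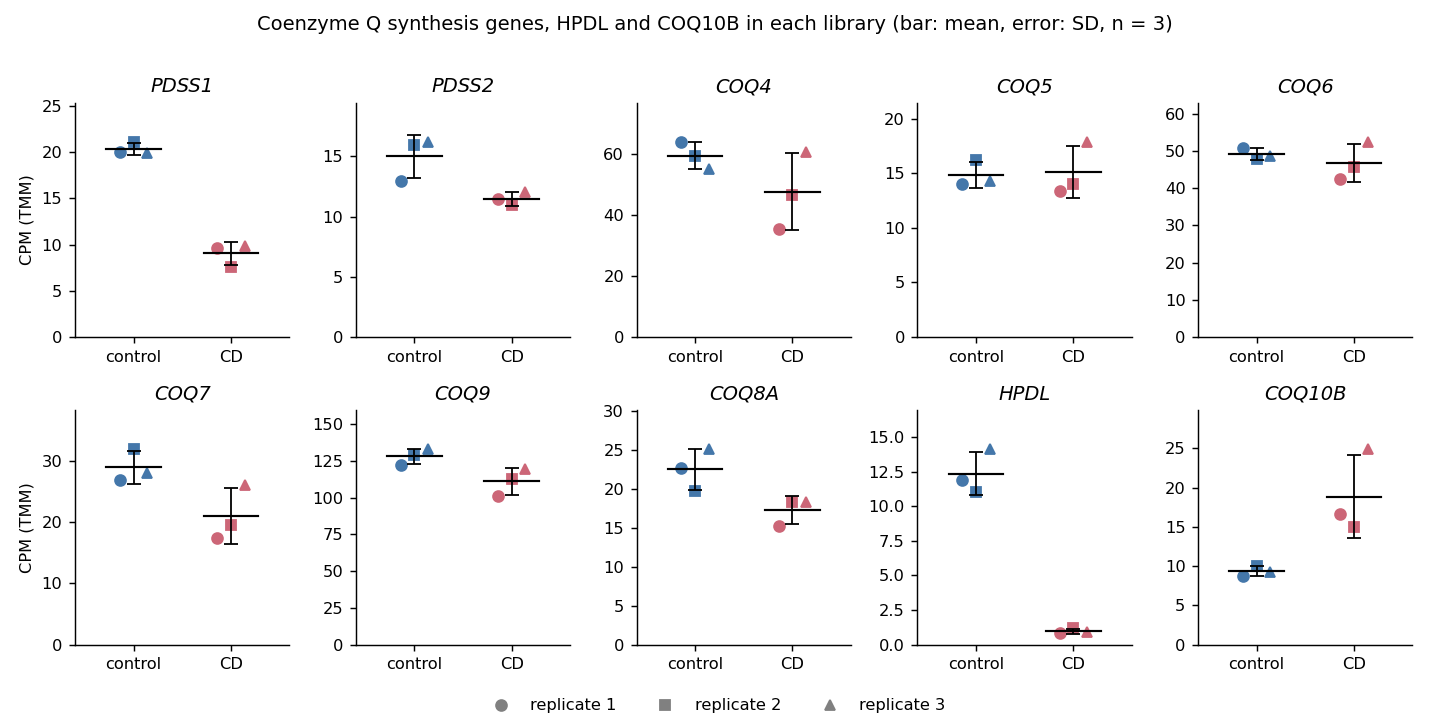
Expression of the 8 coenzyme Q synthesis genes and of HPDL and COQ10B, in CPM after TMM scaling, with 1 point per library, the mean as a bar and the SD as error bars (n = 3 per group). The CD libraries of PDSS1 lie between 7.61 and 9.87 CPM, below the control libraries at 19.9 to 21.1 CPM, whereas COQ5 and COQ6 overlap between the groups.

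The tail of coenzyme Q is made by a heteromer of PDSS1 and PDSS2, which extends farnesyl diphosphate with isopentenyl units. PDSS1 (ENSNVIG00000023576) was at 20.0, 21.1 and 19.9 CPM in control replicates 1, 2 and 3 and at 9.65, 7.61 and 9.87 CPM in CD replicates 1, 2 and 3. Every CD library thus lay below every control library, and the control libraries differed by no more than 1.06-fold. The counts behind these values were 279 to 362 reads in control and 124 to 157 in CD. From 20.3 ± 0.657 CPM to 9.04 ± 1.25 CPM (SD, n = 3 each), the level of PDSS1 fell by 55.6%. PDSS1 and PDSS2 each overlap an uncharacterized locus in the annotation of another mink assembly, so that part of their reads may belong to it. In such bulk libraries, fewer cells of a kind and less RNA per cell cannot be told apart. The log2FC was -1.17 with a SE of 0.17 (FDR 2.97e-04, edgeR), and 7.78% of all tested genes had a change this low or lower. PDSS1 was called lower in each of 14 alternative settings, and with each library left out in turn its log2FC stayed between -1.27 and -1.09.

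PDSS2 (ENSNVIG00000004192), the partner subunit, was at 13.0, 15.9 and 16.2 CPM in control and at 11.4, 10.9 and 12.0 CPM in CD. The groups did not overlap, but control replicate 1 was close to the CD libraries. The log2FC was -0.39 (SE 0.16, 95% interval -0.76 to -0.03), which did not pass the threshold (FDR 0.0733, edgeR). Control replicate 1 also had the fewest reads of PDSS2 among the control libraries (181, against 220 and 294).

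Because both subunits are needed for a working enzyme, their counts were also compared within each library, where no scaling between libraries is involved. The ratio of PDSS1 to PDSS2 reads was 1.54, 1.33 and 1.23 in the control libraries and 0.844, 0.697 and 0.82 in the CD libraries. PDSS1 thus had the more reads of the pair in every control library and the fewer in every CD library. As the lengths of the transcripts are not taken into account, the ratio is not a ratio of molecules, and only its change between the groups can be read. The mean log2 ratio moved from 0.44 ± 0.17 to -0.35 ± 0.15 (SD, n = 3 each), a difference of -0.79. An exact permutation test gave a two-sided p of 0.1, the smallest that 3 libraries against 3 allow, or 0.15 after adjustment over the 3 pairs of genes compared in this way. With each library left out, the difference stayed between -0.87 and -0.70.

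**Figure D2:**
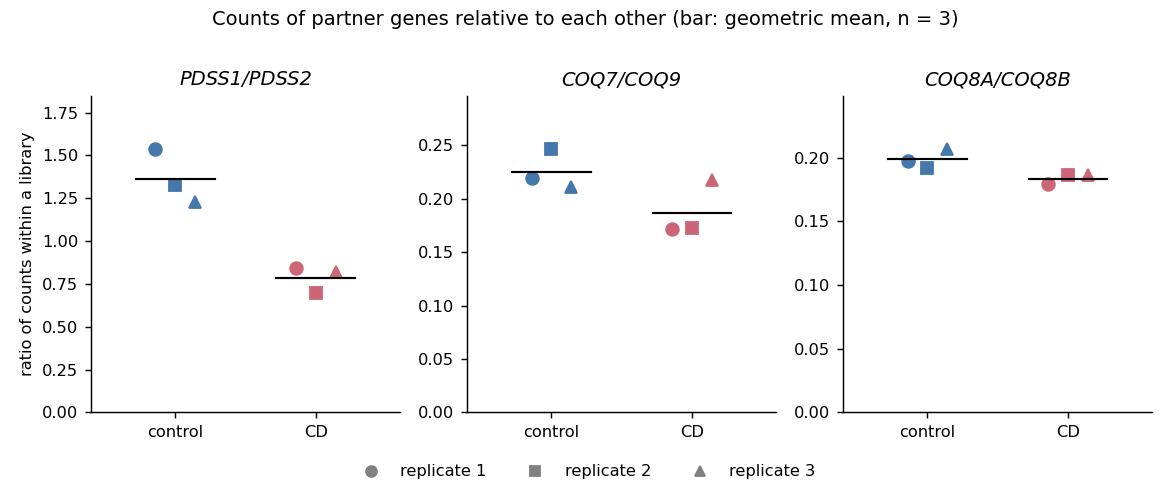
Ratio of the reads of 2 partner genes within each library, with 1 point per library and the geometric mean as a bar (n = 3 per group, vertical axes from 0). For PDSS1/PDSS2 the control libraries lie at 1.23 to 1.54 and the CD libraries at 0.697 to 0.844, while for COQ7/COQ9 the groups overlap.

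The enzymes that modify the head were represented by COQ4, COQ5, COQ6 and COQ7. None of them was called in either direction (0 of 4, against 47.7% of all tested genes). At an unadjusted p under 0.05, COQ7 alone was lower (1 of 4, against 26.1%), and DESeq2 called COQ7 and none of the other head enzymes. COQ7 (ENSNVIG00000018198), the hydroxylase that acts late in the pathway, came closest. Its level was 26.8, 31.8 and 28.0 CPM in control and 17.4, 19.4 and 26.1 CPM in CD. The CD libraries all lay below the control libraries, but CD replicate 3 was separated from control replicate 1 by less than the control libraries were from each other. The log2FC of COQ7 was -0.46 (SE 0.18, 95% interval -0.85 to -0.07, FDR 0.0525, edgeR). DESeq2 and limma-voom on the same counts called it, with an FDR of 0.0373 and 0.0408, and over all alternatives its FDR ranged from 8.12e-05 to 0.175.

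COQ4 (ENSNVIG00000011182), which removes the carboxyl group of the head and is a core protein of the complex, was at 64.0, 59.2 and 55.2 CPM in control. In CD it was at 35.5, 46.6 and 60.7 CPM, so that the CD libraries spanned 1.71-fold and replicate 3 lay within the control range. The log2FC was -0.32 (SE 0.18, 95% interval -0.73 to 0.08, FDR 0.171, edgeR), against -0.14 without CD replicate 1 (FDR 0.469) and -0.57 without CD replicate 3 (FDR 1.28e-04).

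COQ5 (ENSNVIG00000009357), the C-methyltransferase, was at 14.0, 16.2 and 14.3 CPM in control and at 13.4, 14.0 and 17.9 CPM in CD. COQ6 (ENSNVIG00000016297), a flavin-dependent monooxygenase, was at 50.9, 47.9 and 48.7 CPM in control and at 42.3, 45.7 and 52.4 CPM in CD. The libraries of the groups were intermixed for both genes. The log2FC of COQ5 was 0.03 with a 95% interval of -0.36 to 0.41, and that of COQ6 was -0.07 with a 95% interval of -0.35 to 0.21 (FDR 0.915 and 0.672, edgeR). A 2-fold change in either direction lies outside both intervals.

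COQ9 and COQ8A support the other enzymes rather than change the head themselves. COQ9 (ENSNVIG00000015381), a lipid-binding protein that presents the intermediate to COQ7, was at 123, 129 and 133 CPM in control and at 101, 113 and 120 CPM in CD. Its groups did not overlap, although the log2FC was only -0.21 (SE 0.11, 95% interval -0.45 to 0.04, FDR 0.153, edgeR), or -0.13 without CD replicate 1. The ratio of COQ7 to COQ9 reads was 0.219, 0.247 and 0.211 in control and 0.172, 0.173 and 0.218 in CD. The mean log2 ratio differed by -0.27 (exact permutation test, two-sided p = 0.2, also 0.2 after adjustment), with CD replicate 3 inside the control range.

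COQ8A (ENSNVIG00000004266) encodes an atypical kinase-like ATPase of the UbiB family that is required to keep the complex working. It was at 22.6, 19.7 and 25.0 CPM in control and at 15.2, 18.2 and 18.3 CPM in CD, without overlap between the groups. The log2FC was -0.38 (SE 0.16, 95% interval -0.74 to -0.03, FDR 0.0698, edgeR). COQ8B, its paralog, was at 115, 103 and 121 CPM in control and at 84.8, 98.2 and 98.3 CPM in CD, with a log2FC of -0.27 (SE 0.12, FDR 0.0868, edgeR), and was called only without CD replicate 3 (-0.34, FDR 0.00871). The paralogs had similar point estimates, and the mean log2 ratio of COQ8A to COQ8B reads differed between the groups by -0.11 (exact permutation test, two-sided p = 0.1, or 0.15 after adjustment).

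With each library left out in turn, CD replicate 3 proved to decide how many genes of the branch were called. Without it, 6 of the 8 genes were lower (PDSS1, PDSS2, COQ4, COQ7, COQ8A and COQ9), against 29.2% of all genes tested in those 5 libraries, and the log2FC values of COQ4 and COQ7 became -0.57 and -0.68 (FDR 1.28e-04 and 8.12e-05, edgeR). In the other 5 of these fits, 1 gene, PDSS1, was lower. CD replicate 3 had the highest level of the 3 CD libraries for all 8 genes found. The part of its larger share of reads not counted on genes, unmapped reads included, was not tested.

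**Figure D3:**
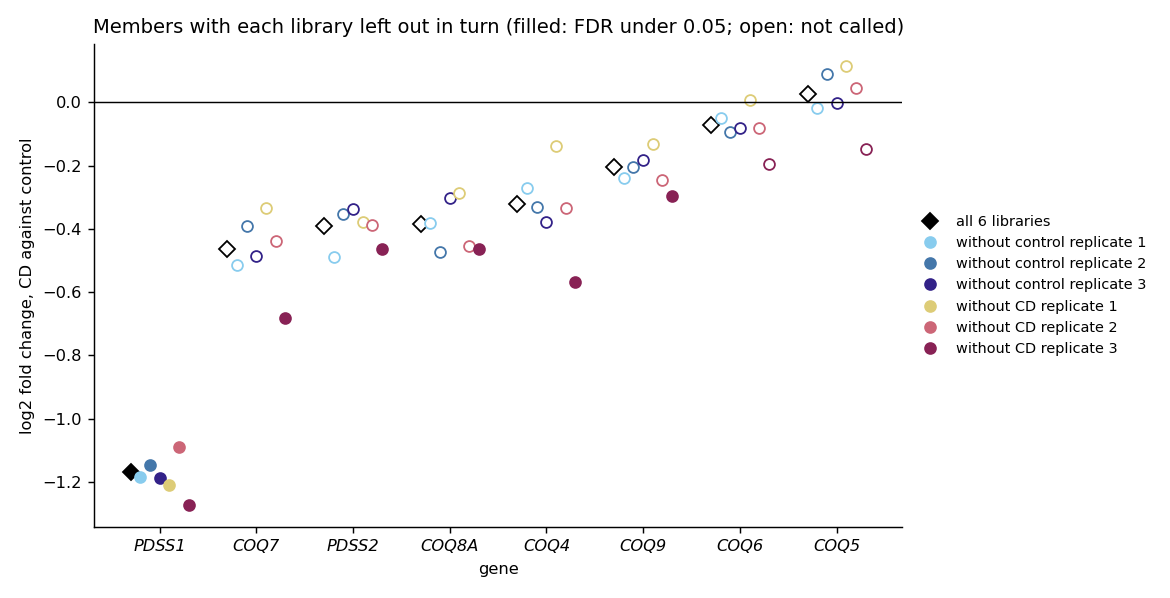
The log2FC of CD against control for the 8 genes in edgeR, with all 6 libraries (diamonds) and with each library left out (circles). Filled symbols are called at an FDR under 0.05, and a reader should see that PDSS1 is filled throughout, between -1.27 and -1.09, while COQ7, PDSS2, COQ8A, COQ4 and COQ9 are filled only without CD replicate 3.

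A list of 8 accessory genes covered the supply of the head, electron supply, binding and transport of coenzyme Q. Of these 8, 7 were found and tested (FDX2 was not found), and 1 was higher and 1 lower in CD (24.8% and 22.9% of all tested genes), the median log2FC being 0.17. Without CD replicate 1 the median changed sign, being the -0.19 of COQ8B. Without CD replicate 3, 2 were higher and 3 lower (29.3% and 29.2% of all genes). HPDL (ENSNVIG00000018713), which makes a precursor of the head from tyrosine metabolism in mitochondria, was at 11.9, 11.1 and 14.1 CPM in control. In CD it was at 0.799, 1.17 and 0.936 CPM, from 13, 19 and 13 reads. No CD library came near a control library, and the level fell by 92.1% (log2FC -3.66, SE 0.23, FDR 1.88e-06, edgeR). Among all tested genes, 0.189% had a change this low or lower, and HPDL was called in all 14 alternatives, with log2FC values of -3.86 to -3.53.

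COQ10B (ENSNVIG00000010606), a lipid-binding protein needed for coenzyme Q to work in respiration, moved in the opposite direction. It was at 8.74, 10.0 and 9.26 CPM in control and at 16.6, 15.03 and 24.9 CPM in CD, with every CD library above every control library. Its log2FC was 1.01 (SE 0.21, FDR 0.00328, edgeR), or 0.72 without CD replicate 3. Its paralog COQ10A was at 4.80, 4.26 and 4.35 CPM in control and at 4.24, 6.81 and 8.43 CPM in CD, and was not called (log2FC 0.53, SE 0.26, FDR 0.113, edgeR), except without CD replicate 1 (0.78, FDR 0.00949), and without CD replicate 3 its log2FC was 0.27 (FDR 0.304).

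FDXR, the reductase of the ferredoxin chain that feeds electrons to COQ6, was at 35.6, 34.8 and 38.5 CPM in control and at 21.8, 27.2 and 33.4 CPM in CD. It was not called (log2FC -0.40, FDR 0.07, edgeR), except without CD replicate 3 (-0.60, FDR 1.68e-04), and without CD replicate 1 its log2FC was -0.25. STARD7, a lipid transfer protein that takes part in moving coenzyme Q out of mitochondria, had a log2FC of 0.17 and an FDR of 0.292 in edgeR (0.07 without CD replicate 1). PPTC7, a mitochondrial phosphatase, was at 0.648 to 3.32 CPM in CD, a 5.12-fold range, and was not called (log2FC 0.46, SE 0.47, FDR 0.446, edgeR). Its estimate hung on single CD libraries, being -0.26 without replicate 1 (FDR 0.583, edgeR) and 0.80 without replicate 3 (FDR 0.0234, edgeR).

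**Figure D4:**
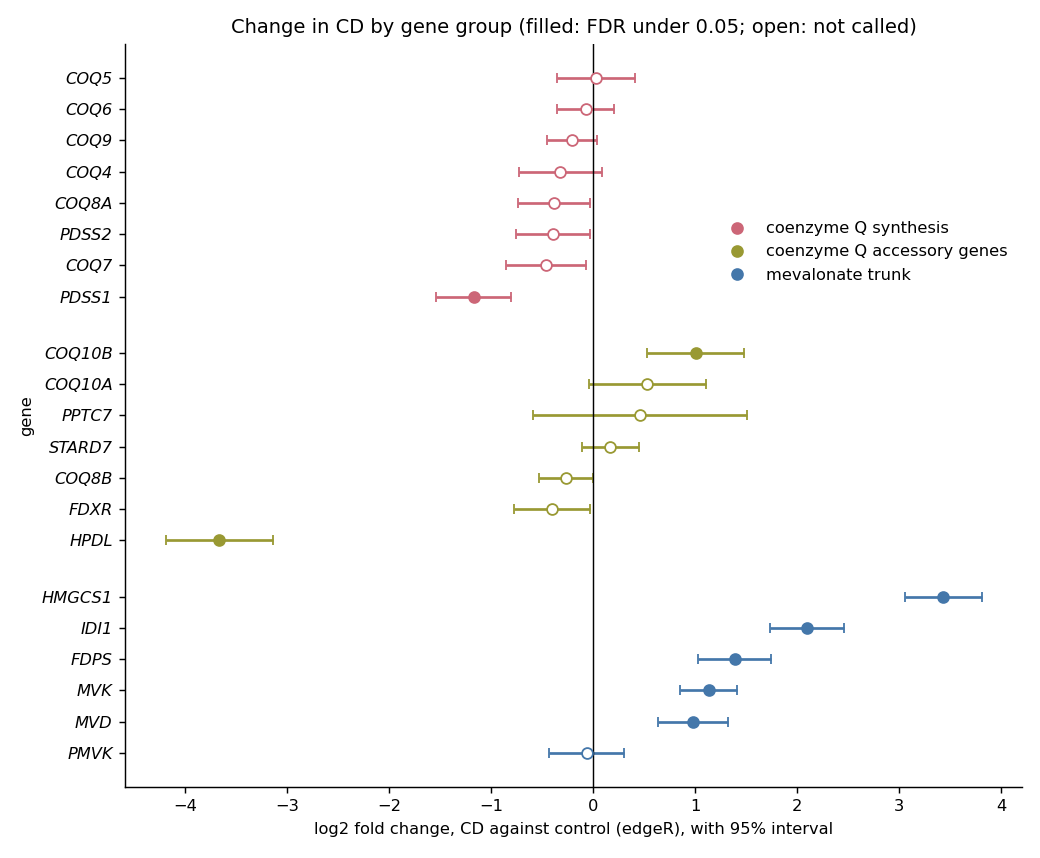
The log2FC of CD against control in edgeR with its 95% interval for the tested genes of coenzyme Q synthesis, of the accessory list and of the mevalonate trunk. Filled points are called at an FDR under 0.05 (1 of 8, 2 of 7 and 5 of 6 genes), and PDSS1 and HPDL lie left of 0 while the called trunk genes lie between 0.98 and 3.43.

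The trunk that supplies isoprenoid units to all branches stood at other values in the same libraries. Of the 6 trunk genes followed here (HMGCS1, MVK, PMVK, MVD, IDI1 and FDPS), 5 were higher and 0 lower in CD, against 24.8% and 22.9% of all tested genes, the median log2FC being 1.26, and PMVK was not called (-0.06, FDR 0.775, edgeR), except without CD replicate 3, where it was lower (-0.31, FDR 0.0172). At an unadjusted p under 0.05 also 0 were lower, and DESeq2 and limma-voom left the count of called genes at 5. HMGCS1, a synthase at the start of the trunk, was at 112, 135 and 142 CPM in control and at 1638, 1413 and 1160 CPM in CD, without overlap (log2FC 3.43, FDR 4.17e-07, edgeR). FDPS, which makes the farnesyl diphosphate that PDSS1 and PDSS2 extend, had a log2FC of 1.39 (SE 0.16, FDR 7.69e-05, edgeR). The increase of these genes and the fall of PDSS1 were thus measured side by side, and no difference between the lists was tested.

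Other enzymes that draw on the same precursors changed in both directions, 3 higher and 3 lower of 9 tested (24.8% and 22.9% over all genes), the median log2FC being 0.00. FDFT1, which commits farnesyl diphosphate to sterols, had a log2FC of 2.17 (FDR 4.95e-07, edgeR), and GGPS1, which makes geranylgeranyl diphosphate, one of 0.65 (FDR 0.0315, edgeR). DHDDS, which extends farnesyl diphosphate toward dolichol and so does for that branch what PDSS1 does for coenzyme Q, was at 135, 117 and 135 CPM in control and at 55.7, 57.9 and 37.0 CPM in CD. Its libraries did not overlap between the groups, with a log2FC of -1.36 (SE 0.17, FDR 1.39e-04, edgeR). NUS1, another gene of the dolichol branch, pointed upward and was not called (log2FC 0.40, FDR 0.157, edgeR). FNTA and FNTB, the subunits of the protein farnesyltransferase, had log2FC values of 0.78 and -0.50 (FDR 0.00371 and 0.00866, edgeR). The calls of GGPS1 (FDR 0.137), FNTB (0.054) and RABGGTA, which had a log2FC of -0.35 (FDR 0.0326, edgeR), were lost without control replicate 3, that of GGPS1 also without control replicate 1 or CD replicate 2, and that of RABGGTA also without control replicate 1, control replicate 2 or CD replicate 1 and with the replicate number as a block (FDR 0.0738).

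Enzymes that pass electrons to coenzyme Q outside complex I were followed as a list of 12 genes, of which 8 were found and 6 tested, CHDH and NQO1 having at most 2 reads in a library. Only DHODH was lower and none was higher in CD, against 22.9% and 24.8% of all tested genes (0 higher also at an unadjusted p under 0.05, against 28.6%, and by DESeq2 and limma-voom), and the median log2FC was -0.19. DHODH, the enzyme of pyrimidine synthesis that uses coenzyme Q as its acceptor, was at 19.1, 23.6 and 24.2 CPM in control and at 7.68, 9.94 and 8.57 CPM in CD. Every CD library lay below every control library, and the level fell by 60.8% (log2FC -1.35, SE 0.18, FDR 1.75e-04, edgeR). Without CD replicate 3, 5 of the 6 enzymes were called, 1 higher and 4 lower, against 29.3% and 29.2% of all genes tested in those libraries.

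Among the 10088 tested genes with a symbol, those whose log2 CPM followed that of PDSS1 most closely over the 6 libraries were TPST1, DCK and SLC1A6 (Pearson's r of 0.9986, 0.9983 and 0.9976, given as a description). The groups do not overlap in PDSS1, so a gene that differs between them can also reach a high r. Of the 12148 tested genes, with or without a symbol, 830 had an r above 0.95.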

How the data were processed

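RNA of 3 control and 3 CD libraries of Mv1Lu cells was analysed, grouped by the sample titles. According to the methods, the authors isolated poly(A) mRNA, made Nextera XT libraries, trimmed the reads with fastp 0.20.1 and aligned them to the mink assembly NNQGG.v01 with STAR 2.7.2a. The authors deposited raw counts per gene, with the counting program and its use of strand not given in the sources used here. In the RefSeq annotation of another mink assembly (ASM_NN_V1), PDSS1 and PDSS2 each overlap 1 uncharacterized locus, so reads of these may not be told apart. Gene lengths of the assembly used were not at hand, so levels are not compared between genes. The table also has 4 lines of totals for reads not counted on genes, unmapped reads among them (29.3% to 47.2% of a library together), which were left out. The normalized files, which hold these counts divided by a size factor beside gene identifiers in another order, were not used.

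Counts were filtered by filterByExpr (minimum count 10, minimum total 15), scaled by TMM and tested with glmQLFit (robust) and glmQLFTest of edgeR 4.0.16 in R 4.3.3 with the condition as the only term, over all genes, with Benjamini-Hochberg adjustment. The standard error is the log2 fold change divided by the square root of F, and the 95% interval uses the t quantile of its degrees of freedom. The scripts were tested on simulated data. Genes were matched by symbol, or by an older or protein-style symbol (MVK, DHODH, CS and TOMM20). Alternatives were DESeq2 1.42.0, limma 3.58.1 (voom), other scalings and filters, a block for the replicate number, omission of each library and an FDR of 0.01. The genes named are all members and accessory genes, called genes of the other lists, the 3 genes most like PDSS1, and markers. PMVK, NUS1, ADCK2, ADCK5, FDX1 and HPD were named after their values were seen. The members and lists were chosen with earlier results of these data known. A gene of the mevalonate trunk list is not reported here.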

Additional observations from a re-analysis of the deposited data

How the results depend on the processing

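The alternatives gave 461 log2 fold changes of 33 genes (the 4 relatives ADCK2, ADCK5, FDX1 and HPD, described among the other observations, are not counted), of which 432 kept their direction and their side of the FDR threshold, 9 lost their call, 14 gained one and 6 changed sign. The sign changes concerned genes that were not called: COQ5 (-0.02 without control replicate 1, -0.0016 without control replicate 3), COQ6, PMVK and PPTC7. With each library left out in turn, COQ5 ranged from -0.15 to 0.12, COQ6 from -0.19 to 0.0090, PMVK from -0.31 to 0.10 and PPTC7 from -0.26 to 0.80, the negative end of COQ5, COQ6 and PMVK and the positive end of PPTC7 being without CD replicate 3 and the other end without CD replicate 1. The number of coenzyme Q synthesis genes lower in CD was 2 instead of 1 with DESeq2, limma-voom, DESeq2 size factors in edgeR and no filter on low counts, the added gene being COQ7 in each. With 1 library left out it was 1 to 6, and the 6 were found without CD replicate 3. In these fits the numbers called were 2 to 5 for the accessory genes and 1 to 5 for the enzymes linked to coenzyme Q, highest without CD replicate 3 (2 higher and 3 lower, and 1 higher and 4 lower, against 29.3% and 29.2% of all genes in that fit), and 3 to 7 for the other isoprenoid branches, lowest without control replicate 3 and highest without CD replicate 3. The median log2 fold change of the coenzyme Q synthesis genes was -0.46 to -0.21 with 1 library left out, the latter without CD replicate 1. The cause was not tested. The replicate numbers are shared by the groups, but same-numbered libraries did not deviate together (r of -0.02, -0.4 and -0.2), so they were not treated as pairs. With the replicate number as a block, 1 coenzyme Q synthesis gene was lower, 2772 genes were higher and 2636 lower over the whole table, the median of the coenzyme Q synthesis genes was -0.37, and RABGGTA lost its call (FDR 0.0738). At 124 to 157 reads in the CD libraries, PDSS1 is well above the filter, whereas HPDL, at 13 to 19 reads, is limited in the precision of its fold.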

Other observations

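Genes of mitochondrial content and its regulation, a list of 12 of which 10 were found and 9 tested, had 2 members called higher and 3 lower (24.8% and 22.9% of all tested genes), and the median of their log2 fold changes (CD over control) was 0.04. CS, citrate synthase, was at 448, 430 and 456 CPM in control and at 669, 678 and 614 CPM in CD (log2 fold change 0.56, standard error 0.11, FDR 0.00204, edgeR). ESRRA, a nuclear receptor that drives mitochondrial genes, was at 58.7, 60.2 and 63.5 CPM in control and at 81.6, 87.3 and 85.7 CPM in CD (log2 fold change 0.48, FDR 0.00462, edgeR). The lower genes were POLRMT, the mitochondrial RNA polymerase (log2 fold change -0.99, FDR 1.02e-04), NRF1, a transcription factor of nuclear genes for mitochondria (-0.86, FDR 0.00164), and the coactivator PPARGC1B (-1.18, FDR 0.00188; all edgeR). For each of these 5 genes the CD and control libraries did not overlap, which was the case for 58.0% of all tested genes in either direction. All 5 were called in each of 14 alternatives.

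Some relatives of the coenzyme Q genes were chosen after their values were seen. ADCK2, of the same UbiB family as COQ8A, was at 64.9 to 74.3 CPM in control and at 90.8 to 98.5 CPM in CD (log2 fold change 0.45, FDR 0.00777, edgeR). ADCK5, another member of that family, was at 97.3 to 107 CPM in control and at 62.6 to 84.6 CPM in CD (-0.46, FDR 0.0172, edgeR), and lost its call without control replicate 1 or 3 (FDR 0.0602 and 0.0743). HPD, the cytosolic relative of HPDL that degrades tyrosine, had 6 to 12 reads per library in control and 21 to 29 in CD (log2 fold change 1.42, standard error 0.31, FDR 0.00379, edgeR). HPD passed the filter on low counts only through its CD libraries, so this FDR is not read as a call. With at least 50 counts in 3 libraries required, HPD was not tested. FDX1, a mitochondrial ferredoxin reduced by FDXR, had a log2 fold change of 0.54 (FDR 0.0362, edgeR) and was not called without control replicate 1 or 3 (FDR 0.118 and 0.151). Leaving out CD replicate 3 lowered the value of FDX1 to 0.31.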
